A study of Mus musculus with 8 samples.

Results

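The 10 genes described here set or carry the activity of the growth kinase complex mTORC1, and they were followed in mouse pancreatic islets kept in high or low glucose. They are the sestrin genes Sesn1, Sesn2 and Sesn3, the arginine sensor gene Castor1, the inhibitor genes Ddit4, Deptor and Tsc2, the 4E-BP genes Eif4ebp1 and Eif4ebp2, and the S6 kinase gene Rps6kb1. They were found by symbol, and all 10 are among the 27534 genes of the deposited table. In high glucose Eif4ebp1 rose 1.79-fold, Ddit4 rose 1.26-fold and Sesn3 fell 1.61-fold. For the other 7 genes the difference did not pass the test, although Sesn1, Eif4ebp2 and Rps6kb1 passed once libraries with the same number were compared with each other. Of all genes tested, 25.0% passed without that pairing and 37.4% with it. What a replicate number stands for is not stated.

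The islets came from C57BL/6J mice and spent 72 h in serum-containing RPMI medium at 20 mM glucose (high glucose, 4 libraries) or at 7.5 mM glucose (low glucose, 4 libraries) before total RNA was sequenced. Both groups share the strain, the medium and the time, and no fresh islet or shorter culture was analysed here. Not given in the sources used here were sex, age, the number of mice and any pooling of islets. Nothing states that the 4 libraries of a group came from separate mice, so p-values measure the spread between these libraries, which may be technical.

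As background, mTORC1 is a kinase complex that couples nutrients, growth factors and energy to protein synthesis, and in β cells it is tied to cell size, proliferation and insulin production. Amino acids act through the Rag GTPases on the lysosome, where sestrins (leucine) and CASTOR1 (arginine) bind the GATOR2 complex and hold the pathway back when the amino acid is scarce. The TSC complex, of which tuberin (Tsc2) is the GTPase-activating subunit, switches off the GTPase Rheb, and REDD1 (Ddit4) acts upstream of it. Downstream, mTORC1 phosphorylates the 4E-BPs, which release the cap-binding protein eIF4E, and the S6 kinase p70S6K. Transcript counts show none of these phosphorylations.

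The 4E-BP genes are shown first, because Eif4ebp1 had the largest log2 fold change of the 10 genes and Eif4ebp2 is its paralog in the set. They encode small proteins that hold eIF4E through a short motif, a tyrosine followed by 4 residues of any kind, a leucine and a hydrophobic residue. A search of the annotated coding sequences (GENCODE M21, GRCm38) found that motif 1 time in each. Its codons are shown in capitals, with 12 bases on either side, 5′ to 3′ on the coding strand, at chr8:27273325-27273369 (plus strand) and chr10:61435057-61435101 (minus strand), and each stretch lies within 1 exon.
Eif4ebp1: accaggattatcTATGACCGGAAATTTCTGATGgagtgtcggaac
Eif4ebp2: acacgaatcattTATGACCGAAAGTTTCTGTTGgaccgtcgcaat
Of the 21 bases in capitals, 18 are the same in both genes, and of all 45 bases 33 are. Over the whole coding sequences, of 117 and 120 codons with the stop codon left out, 65.5% of aligned columns are identical, and the longest run of identical bases between the full transcripts is 14. The sestrin coding sequences have 480 (Sesn2), 492 (Sesn3) and 551 (Sesn1) codons and are 57.0% to 59.9% identical in pairs, with runs of at most 23 identical bases between transcripts.

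Libraries held 19543045 to 24949515 counts, and 3 counts correspond to 0.114 to 0.161 CPM, the count scaled to a library total that is adjusted by TMM. All 7 lists of cell type markers overlapped between the groups in their summed share of counts. The 10 β-cell markers took 20.7% to 25.7% of counts in high and 19.6% to 25.6% in low glucose, and none was at 0. Of them 4 fell and 2 rose, so that 60% changed, against 25.0% of all genes tested. Acinar markers (27 of 30 are in the table, none at 0 in either group) took 0.485% to 2.70% of counts in high glucose. In low glucose they took 0.195% to 1.63%. All 24 acinar markers tested had a log2 fold change above 0 (median 0.71), 1 rose and 17 rose in the blocked fit. Of all genes tested, 18.9% rose in the blocked fit. All 10 fibroblast and stellate markers were above 0 too (median 0.95), but none passed, also not in the blocked fit. They took 0.0162% to 0.116% of counts in high and 0.0139% to 0.0326% in low glucose, with the 0.116% in high glucose replicate 1. No fit had them as a covariate. The summed shares of β-cell, acinar and duct markers were each above the low glucose partner in all 4 same-number pairs. With the log2 sum of the acinar markers as a covariate, Eif4ebp1 was 1.78-fold higher (adjusted p = 0.000161), Ddit4 1.22-fold higher (adjusted p = 0.0222) and Sesn3 at 0.620 of its low glucose level (adjusted p = 0.00331), so that the 3 calls were made with it as well. Of all genes tested, 22.4% changed in that fit, 12.3% higher and 10.1% lower. Low glucose replicate 2 stood apart from the other 3 low glucose libraries in several genes below, and the result of each gene without it or without both libraries numbered 2 is given where that changed a call. In bulk RNA, fewer cells of a type and less RNA per cell cannot be told apart.

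Eif4ebp1 encodes 4E-BP1, a repressor of cap-dependent translation (ENSMUSG00000031490, GRCm38 chromosome 8, 27260329 to 27276674). Its level was 63.1, 66.4, 59.3 and 63.1 CPM in high glucose replicates 1 to 4 and 31.0, 37.5, 33.8 and 38.4 CPM in low glucose. The lowest high glucose library lay well above the highest low glucose library. The means were 63.0 ± 2.91 and 35.2 ± 3.39 CPM (SD, n = 4 per group here and below), a log2 fold change of 0.84 (SE 0.08, adjusted p = 5.33e-05) in edgeR's quasi-likelihood test. Within same-number pairs the ratio of high to low glucose was 2.03, 1.77, 1.75 and 1.65. This gene was called without each of the 8 libraries in turn, with adjusted p of at most 0.000397.

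Eif4ebp2 encodes 4E-BP2, which binds eIF4E in the same way (ENSMUSG00000020091, chromosome 10, 61428491 to 61452661). It measured 128, 115, 128 and 126 CPM in high glucose and 139, 128, 150 and 150 CPM in low glucose. The groups overlapped slightly, since low glucose replicate 2 lay within the range of the high glucose libraries, while each high glucose library was lower than the low glucose library of its own number. The means were 124 ± 5.94 and 142 ± 10.8 CPM, a log2 fold change of -0.19 (SE 0.08, adjusted p = 0.0933). It passed with the replicate block (adjusted p = 0.0148), without low glucose replicate 2 (adjusted p = 0.017) and without both libraries numbered 2 (adjusted p = 0.019).

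Eif4ebp1 was above its paralog per length in all 4 high glucose libraries and below it in all 4 low glucose libraries. On the authors' FPKM scale, which divides by gene length, Eif4ebp1 made up 57.2% ± 2.22 of the sum of both transcripts in high glucose and 39.5% ± 3.11 in low glucose, with ranges of 54.9% to 60.2% and 37.0% to 43.6%. That sum was 49.6 ± 0.517 FPKM in high and 39.6 ± 2.57 FPKM in low glucose, without overlap. The transcript of their target, Eif4e, which is no member of the set and is named after its values were seen, was at 18.1 ± 1.06 and 16.3 ± 1.15 FPKM. The ratio of the 4E-BP sum to Eif4e was 2.75 ± 0.186 in high and 2.44 ± 0.280 in low glucose, and its ranges overlapped. These sums and ratios have no test of their own. They rest on the listed lengths, 2196 bases for Eif4ebp1 and 5784 for Eif4ebp2, and in CPM Eif4ebp2 was the higher in every library. If part of a listed length is not used in islets, the order of the paralogs per length could differ.

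Sesn3 had the highest CPM of the 10 genes and was the member that fell (ENSMUSG00000032009, chromosome 9, 14275067 to 14333101). Sestrin 3 is, like its relatives, an inhibitor of mTORC1, and FOXO factors are known to induce it. Its level was 294, 244, 303 and 275 CPM in high glucose and 457, 354, 508 and 479 CPM in low glucose. Every low glucose library was above every high glucose library, and replicate 2 was the lowest of its group in both. The means were 279 ± 26.2 and 449 ± 67.1 CPM, a log2 fold change of -0.69 (SE 0.12, adjusted p = 0.00185). Same-number pairs gave ratios of 0.644, 0.689, 0.596 and 0.575. It was called without each library in turn, with adjusted p of at most 0.00768.

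Sesn2, which encodes a leucine-binding sestrin and is a known target of ATF4 and p53 (ENSMUSG00000028893, chromosome 4, 132492032 to 132510501), did not pass. It was at 131, 115, 141 and 123 CPM in high glucose and 125, 131, 146 and 133 CPM in low glucose. The groups overlapped widely. The log2 fold change was -0.06 (SE 0.08, adjusted p = 0.62), and its 95% interval runs from 0.843 to 1.09 as a ratio of high to low glucose.

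Sesn1, a p53 and FOXO target (ENSMUSG00000038332, chromosome 10, 41809935 to 41908424), measured 31.6, 35.9, 33.0 and 31.3 CPM in high glucose and 36.4, 39.2, 36.5 and 39.9 CPM in low glucose. The groups did not overlap, although high glucose replicate 2 came within 1 CPM of the lowest low glucose library. The means were 33.0 ± 2.10 and 38.0 ± 1.82 CPM, a log2 fold change of -0.20 (SE 0.07, adjusted p = 0.0589). It passed with the replicate block (adjusted p = 0.0242), with library size alone as scaling (adjusted p = 0.00827), without high glucose replicate 2 (adjusted p = 0.0388) and without both libraries numbered 2 (adjusted p = 0.0212).

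Per gene length the sestrins had a different order from that in CPM, because the listed length of Sesn3 is 15269 bases and that of Sesn2 is 3475. Sesn2 made up 58.0% ± 0.881 of the summed sestrin FPKM in high and 49.7% ± 2.5 in low glucose, and Sesn3 28.8% ± 0.979 and 37.9% ± 3.38. Neither pair of ranges overlapped. Sesn1 took 13.2% ± 1.61 and 12.4% ± 1.27, with overlap. Their sum was 62.7 ± 4.93 FPKM in high and 75.5 ± 6.02 FPKM in low glucose, with ranges that overlapped through 1 library of each group. If part of the listed Sesn3 length is not used in islets, its FPKM is understated in both groups.

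**Figure D1:**
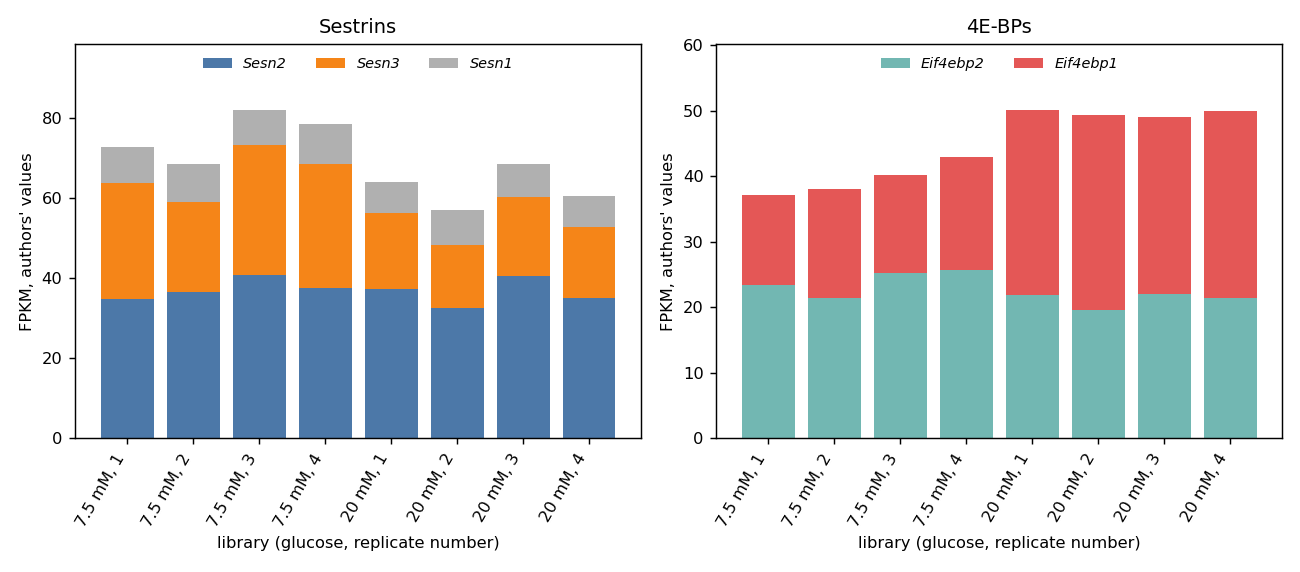
Stacked bars give the authors' FPKM (y axis) of the sestrin genes (left) and the 4E-BP genes (right) in each library (x axis, glucose concentration and replicate number). The Eif4ebp1 segment makes up 54.9% to 60.2% of its bar in 20 mM glucose and 37.0% to 43.6% in 7.5 mM, and the Sesn3 segment is shorter in 20 mM.

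Of the inhibitor genes Ddit4, Deptor and Tsc2, only Ddit4 was called. Ddit4 encodes REDD1, a stress-induced protein that restrains mTORC1 through the TSC complex (ENSMUSG00000020108, chromosome 10, 59949669 to 59951834). It measured 92.9, 82.5, 84.8 and 96.5 CPM in high glucose and 67.3, 71.9, 66.7 and 77.6 CPM in low glucose. The groups did not overlap. The means were 89.2 ± 6.59 and 70.9 ± 5.07 CPM, a log2 fold change of 0.33 (SE 0.08, adjusted p = 0.0109), and same-number pairs gave ratios of 1.38, 1.15, 1.27 and 1.24. Adjusted p stayed at or below 0.0472 without each library in turn, but was 0.0581 with library size alone as scaling.

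Deptor, whose product binds mTOR itself and inhibits the kinase (ENSMUSG00000022419, chromosome 15, 55112317 to 55259271), was at 203, 159, 199 and 186 CPM in high glucose and 184, 138, 186 and 182 CPM in low glucose. The groups overlapped, replicate 2 was the lowest library of both, and each high glucose library was above the low glucose library of its number. The log2 fold change was 0.12 (SE 0.11, adjusted p = 0.50), with 0.099 as its adjusted p in the blocked fit. Gm9920, at 3.04 CPM in high glucose, lies on the other strand over 1361 bases, and because the strand setting of the counting is unstated, reads of the pair cannot be told apart.

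Tsc2 encodes tuberin (ENSMUSG00000002496, chromosome 17, 24595816 to 24632630) and did not pass. Its level was 99.7, 81.7, 103 and 97.2 CPM in high glucose and 101, 76.9, 101 and 99.3 CPM in low glucose. Replicate 2 was again the lowest in both groups, and the other libraries lay close together. The log2 fold change was 0.01 (SE 0.11, adjusted p = 0.962), and the 95% interval of the ratio of high to low glucose was 0.854 to 1.18. Tsc2 shares 693 bases with the opposite-strand gene Pkd1, so its value is uncertain to that extent.

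Castor1, the arginine sensor gene (ENSMUSG00000020424, chromosome 11, 4218225 to 4222409), was close to the limit of detection. Its raw counts were 26, 18, 19 and 6 in high and 20, 22, 16 and 14 in low glucose, or 0.831 ± 0.423 and 0.842 ± 0.228 CPM. The log2 fold change was -0.02 (SE 0.44, adjusted p = 0.975). Its interval, 0.50 to 1.93 as a ratio, leaves smaller changes not detectable at this depth, and the sign of the difference varied among the alternatives.

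Rps6kb1 encodes p70S6K, which phosphorylates ribosomal protein S6 and other translation factors (ENSMUSG00000020516, chromosome 11, 86498871 to 86544805). It was at 37.7, 40.2, 41.3 and 40.6 CPM in high glucose and 36.0, 32.9, 34.4 and 38.1 CPM in low glucose. High glucose replicate 1 lay below low glucose replicate 4, so the groups overlapped by that pair, and all 4 same-number pairs were higher in high glucose. The means were 39.9 ± 1.57 and 35.3 ± 2.21 CPM, a log2 fold change of 0.18 (SE 0.07, adjusted p = 0.0898). With the replicate block it passed narrowly (adjusted p = 0.0492). It shares 155 bases with Rnft1 on the other strand.

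**Figure D2:**
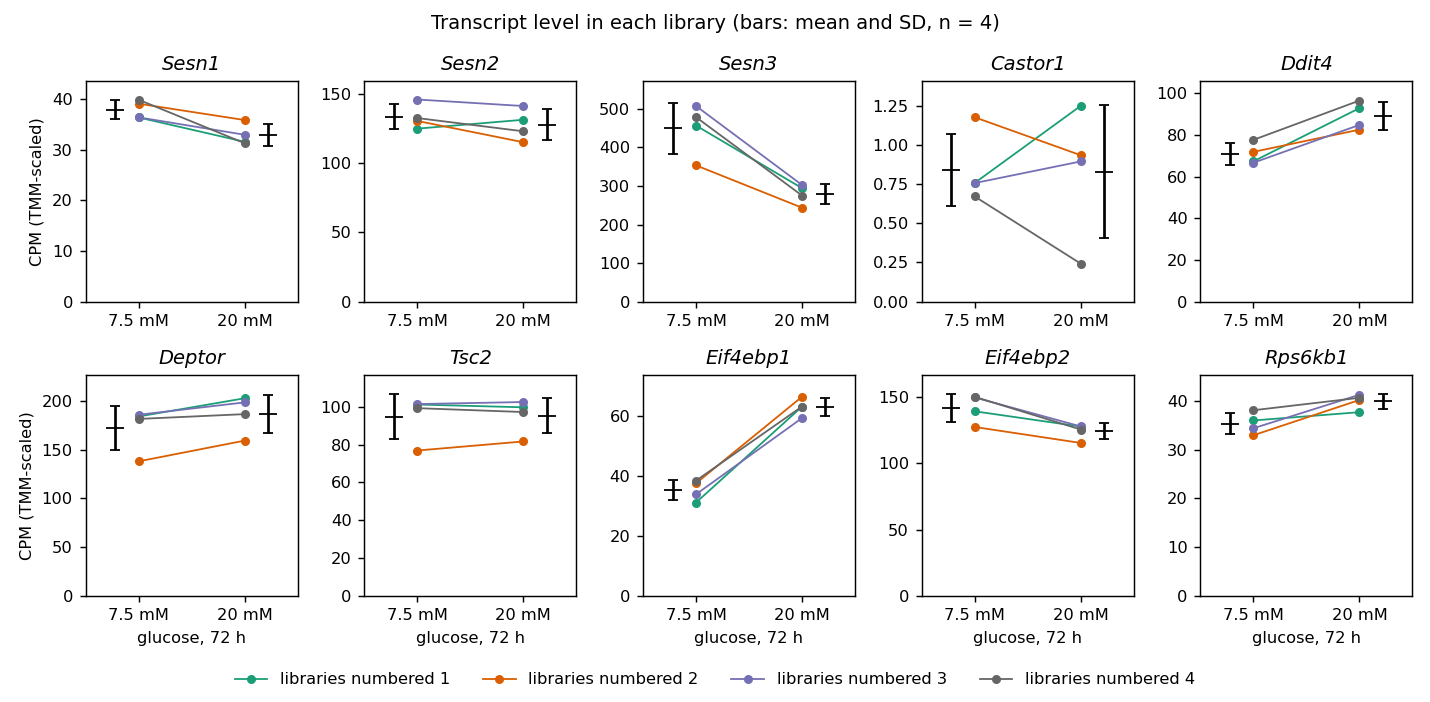
Each panel gives the CPM (y axis, from 0) of 1 gene in 7.5 mM and 20 mM glucose (x axis). Points are libraries, lines join libraries with the same replicate number, and bars beside them give the mean and SD of 4 libraries. All 4 lines climb for Eif4ebp1, Ddit4, Rps6kb1 and Deptor and all 4 drop for Sesn3, Sesn1 and Eif4ebp2.

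Of the 10 genes, 3 changed, 2 of them higher and 1 lower in high glucose, where 25.0% of all 15442 tested genes changed (13.1% higher and 11.9% lower). The share of members that changed is thus near that of all genes. The groups did not overlap for 4 members, 2 higher and 2 lower, against 27.3% of all tested genes (13.7% higher and 13.6% lower). With the replicate block 6 members changed, 3 in each direction, where 37.4% of all genes did (18.9% higher and 18.5% lower). With library size alone as scaling 1 member was higher (10.4% of all genes) and 2 were lower (17.1% of all genes), and 37.8% of all changed genes were higher, against 52.5% with TMM. With both libraries numbered 2 left out, 5 members changed, 2 higher and 3 lower, where 32.1% of the 15670 genes tested in that fit changed (16.4% higher and 15.8% lower). All 10 passed the filter on low counts. Sesn1, Sesn2 and Eif4ebp2 also lie over the minor genes 9930024M15Rik, Gm12981 and Gm48086, each at 0.518 CPM or less on average in either group. The median log2 fold change of the 10 genes was -0.01, as was that of all genes tested. The authors' deposited table gives an adjusted p under 0.05 for 3 members, Eif4ebp1 (log2 fold change 0.85), Ddit4 (0.34) and Sesn3 (-0.68). It does so for 15.2% of all 27534 listed genes. That share is not like the members' share, since only 15442 of the listed genes passed the filter on low counts used here.

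**Figure D3:**
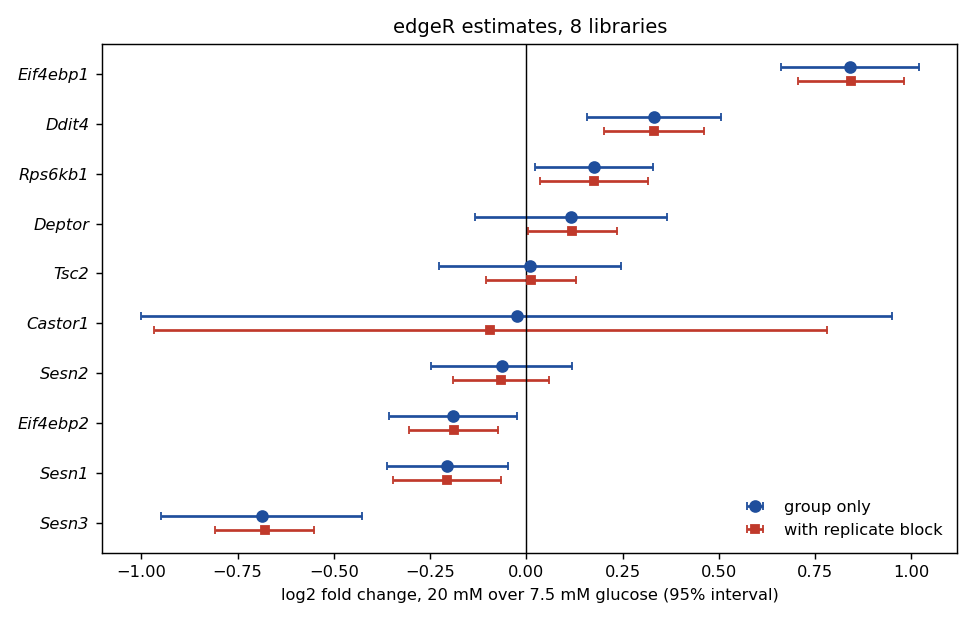
The x axis gives the log2 fold change of 20 mM over 7.5 mM glucose and the y axis the 10 genes in order of that value. Blue circles come from the edgeR fit with the group only and red squares from the fit with the replicate block, each with its 95% interval. Eif4ebp1 at 0.84 and Sesn3 at -0.69 lie at the ends, and Castor1 has the widest interval.

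Compared per length, transcript levels in high glucose stood in the order Ddit4 (50.3 ± 3.71 FPKM), Sesn2 (36.4 ± 3.41), Eif4ebp1 (28.4 ± 1.13), Eif4ebp2 (21.3 ± 1.11), Deptor (20.8 ± 2.26), Sesn3 (18.1 ± 1.79), Tsc2 (9.81 ± 1.01), Sesn1 (8.19 ± 0.502), Rps6kb1 (4.57 ± 0.198) and Castor1 (0.522 ± 0.265). The ranges of Eif4ebp2 and Deptor, of Deptor and Sesn3, and of Tsc2 and Sesn1 overlapped, and the other neighbours were apart. In low glucose Sesn3 had rank 3 (28.7 ± 4.36 FPKM) and Eif4ebp1 rank 6 (15.6 ± 1.59 FPKM), so these genes changed places across the middle of the order. There Ddit4 (39.4 ± 3.10 FPKM) and Sesn2 (37.5 ± 2.54 FPKM) overlapped, as did Sesn3 and Eif4ebp2, Deptor and Eif4ebp1, and Tsc2 and Sesn1.

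RefSeq promoter windows (GRCm38.p6, 250 bases before to 50 after a start) were at hand for 8 of the 10 genes, with 2 windows for Sesn1. They were searched on both strands for the C/EBP-ATF response element bound by ATF4 (TGATGNAA), the E-box (CACGTG), the FOXO element (GTAAACA) and the hypoxia response element core (ACGTG, which also lies within the E-box). None of the 8 genes had the first or the second, which 3.97% and 7.15% of all 32851 windows hold. Sesn1 had the FOXO element (3.65% of all windows), and Ddit4, Eif4ebp2 and Castor1 had the hypoxia core (19.6% of all windows). The windows of the called genes Ddit4 and Sesn3 and the Sesn1 window with a match are shown 5′ to 3′ on the gene's strand, with matches in capitals. They are chr10:59951721-59952020 (minus), chr9:14276051-14276350 (plus) and chr10:41810324-41810623 (plus).
Ddit4: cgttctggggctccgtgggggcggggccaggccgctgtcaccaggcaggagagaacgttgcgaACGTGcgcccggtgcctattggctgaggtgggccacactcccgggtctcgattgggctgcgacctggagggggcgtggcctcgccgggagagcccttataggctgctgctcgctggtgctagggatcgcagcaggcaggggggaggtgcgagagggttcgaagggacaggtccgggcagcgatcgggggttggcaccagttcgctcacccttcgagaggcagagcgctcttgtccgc
Sesn3: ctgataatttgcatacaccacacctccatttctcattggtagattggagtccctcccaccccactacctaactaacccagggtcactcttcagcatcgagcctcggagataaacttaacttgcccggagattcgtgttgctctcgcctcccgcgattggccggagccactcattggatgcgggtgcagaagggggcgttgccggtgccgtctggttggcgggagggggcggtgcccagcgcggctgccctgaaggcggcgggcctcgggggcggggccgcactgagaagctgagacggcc
Sesn1: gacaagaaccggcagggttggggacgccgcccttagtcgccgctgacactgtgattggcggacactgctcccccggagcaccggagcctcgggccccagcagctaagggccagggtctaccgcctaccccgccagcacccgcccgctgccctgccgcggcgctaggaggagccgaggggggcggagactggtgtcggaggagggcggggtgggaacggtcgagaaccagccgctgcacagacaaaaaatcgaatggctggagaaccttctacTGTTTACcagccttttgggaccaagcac
The match in Ddit4 starts at base 64 of the window and that in Sesn1 at base 273, where the element reads on the opposite strand, while Sesn3 has none of the 4. GC content was 69.0% for Ddit4, 62.7% for Sesn3 and 66.7% for this Sesn1 window, against a median of 52.7% over all windows. A match describes letters only, and its absence from these windows says nothing of the factors.

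Around the members, 6 of 28 tested genes of amino acid sensing and the Rag GTPases fell, 2 rose and 20 did not pass (median log2 fold change -0.06). The share that changed was 28.6%, near the 25.0% of all genes. This list and the other gene lists were chosen with earlier results of these data known, so their shares may reflect that choice. Flcn, which encodes the Rag regulator folliculin, fell 1.91-fold from 98.0 ± 5.52 to 51.4 ± 3.05 CPM (adjusted p = 1.49e-05). Its partner Fnip2 fell 2.16-fold from 94.1 ± 18.0 to 43.5 ± 1.77 CPM, and the GTPase gene Rragd fell 1.66-fold from 111 ± 5.46 to 66.5 ± 1.91 CPM. Fnip1 (1.48-fold) and Rragc (1.42-fold), named after their values were seen, fell as well. The genes that rose were Sec13, a GATOR2 subunit that also serves the COPII coat (1.51-fold), and Lars, the leucyl-tRNA synthetase gene (1.38-fold). The count of genes that rose was 4 without low glucose replicate 2, 5 without both libraries numbered 2, and 5 with the replicate block. Of all genes, 16.4% rose without both libraries numbered 2 and 18.9% with the block.

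None of the 11 genes for mTOR complex subunits passed in edgeR, where 25.0% of all genes did. Nor did any of the 11 pass in DESeq2 or limma-voom, and none had an unadjusted edgeR p under 0.05. With the replicate block 2 were lower, and without low glucose replicate 2, or without both libraries numbered 2, the count was 1 higher and 2 lower. Of all genes, 18.5% were lower with the block. Of 14 genes of the TSC, Rheb and AMPK group 3 fell and 1 rose (28.6% changed, median -0.09). Prkaa1, an AMPK catalytic subunit gene, fell 1.24-fold (adjusted p = 0.00386). Tsc1, the partner of Tsc2, fell 1.38-fold from 72.7 ± 12.7 to 52.8 ± 7.52 CPM, Stk11, the AMPK kinase gene LKB1, fell 1.15-fold, and Rheb, which activates mTORC1, rose 1.30-fold from 89.8 ± 13.2 to 117 ± 12.1 CPM. Of these last 3 genes Tsc1 was called in 2, Rheb in 4 and Stk11 in 1 of the 8 fits that left out a library, with adjusted p of up to 0.10, 0.0849 and 0.0872. Stk11, which overlaps Cbarp, also missed the threshold with no filter on low counts (adjusted p = 0.103) and with the acinar covariate (0.081). For this group 1 gene fell when any of HG1, HG2, LG1, LG3 and LG4 was left out (HG and LG mark high and low glucose, with the replicate number) and 5 fell when LG2 was, while no gene rose when HG2, LG1, LG3 or LG4 was left out.

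Of 22 genes of S6 kinases and cap-binding translation 7 fell and 3 rose (45.5% changed, against 25.0% of all genes, median -0.03). Mknk2, a kinase gene whose product phosphorylates eIF4E, fell 1.42-fold, Rps6ka2, a ribosomal S6 kinase gene of the RSK family, fell 1.39-fold and Eif4a2, a helicase gene that overlaps Rfc4, fell 1.38-fold, while its paralog Eif4a1 rose 1.26-fold and Eif4g2 rose 1.22-fold (adjusted p = 0.000563, 0.00379, 0.00486, 0.0181 and 0.00921). The cap-binding homolog gene Eif4e2 rose 1.19-fold (adjusted p = 0.0309), and it was called in 2 of 8 fits that left out a library and not with library size alone (adjusted p = 0.0866), no filter on low counts (0.0659) or the acinar covariate (0.0605). Eif4g2 had adjusted p = 0.0514 with library size alone. Eif4a1 was lost when HG4, LG1, LG3 or LG4 was left out, at an adjusted p of 0.0595 or less. Leaving out any of those 4 libraries left 1 gene of the group that rose, and 5 rose in the blocked fit and without both libraries numbered 2. Only 4 fell when HG1, HG3, LG3 or LG4 was left out. Of 14 other mTORC1 substrates and effectors 2 rose and 2 fell (28.6% changed, median 0.02). Cad, the pyrimidine synthesis enzyme gene, rose 1.38-fold and the autophagy gene Atg13 1.22-fold, while the transcription factor genes Tfeb and Yy1 fell 1.42-fold and 1.2-fold. Atg13 had adjusted p = 0.0624 with library size alone. Tfeb, at 6.38 ± 0.792 and 9.04 ± 0.740 CPM, had adjusted p = 0.0175, and 0.0512 without high glucose replicate 4 and 0.0569 without both libraries numbered 2, each of which left 1 gene that fell. Over these 5 groups together, 18 of 89 tested genes fell and 8 rose, a share of 29.2% against 25.0% of all genes. The 8 became 5 without LG1 or LG3 or with library size alone, and 14 with the replicate block or without both libraries numbered 2. Of all genes, 10.4% rose with library size alone, 18.9% with the block and 16.4% without both libraries numbered 2.

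**Figure D4:**
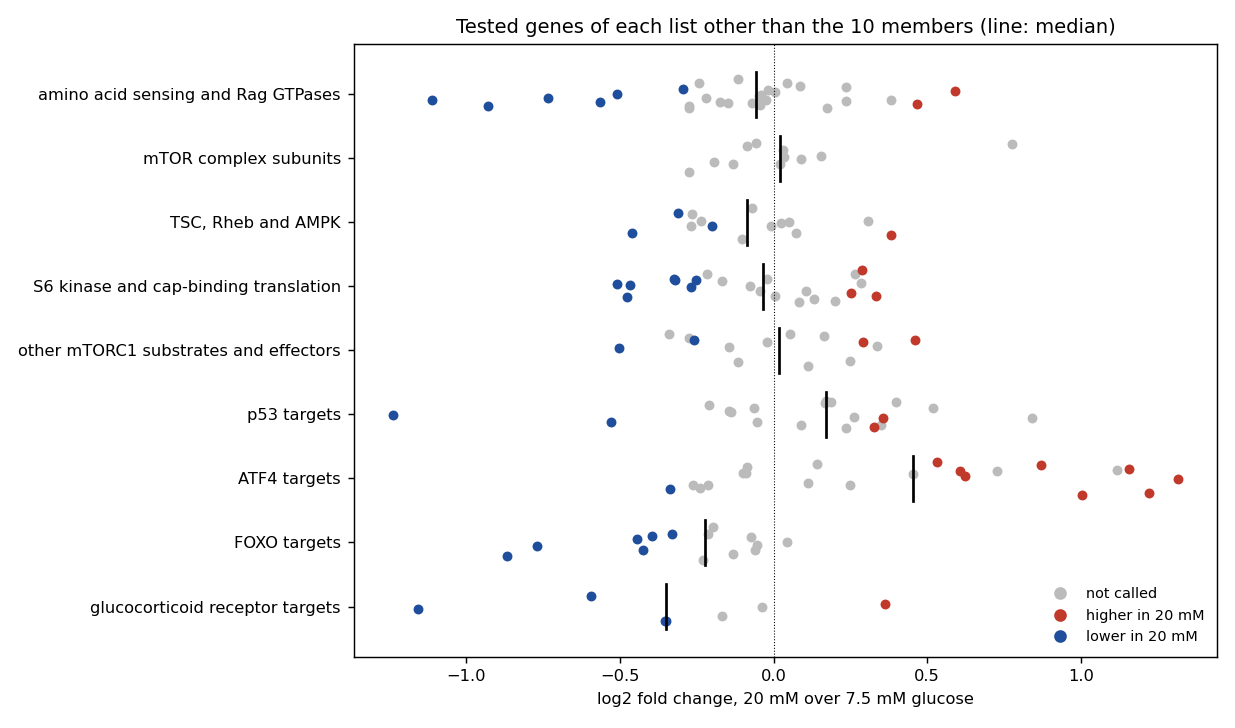
The x axis gives the log2 fold change of 20 mM over 7.5 mM glucose for each tested gene (point) of 9 lists (rows), without the 10 members. Red and blue points passed the edgeR test and black lines mark medians, which run from -0.35 for glucocorticoid receptor targets to 0.45 for ATF4 targets.

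Some of the members have known inducers, and other targets of these were counted with the members left out, beside 13.1% of all tested genes that rose and 11.9% that fell. The lists of targets were chosen with earlier results of these data known. A share that differs from that of all genes may therefore come from the choice of list. Of 21 ATF4 targets, 8 rose and 1 fell (42.9% changed, median log2 fold change 0.45), with Psat1, Phgdh and Psph of serine synthesis at 2.49-fold, 2.23-fold and 2.01-fold and Chac1, a glutathione-degrading enzyme gene, at 1.83-fold. Atf5, a related factor gene that overlaps Nup62, fell 1.26-fold, and Psph overlaps Cct6a. Beside them Eif4ebp1 and Ddit4, which ATF4 induces, rose, while Sesn2 did not pass. The count of ATF4 targets that fell was 2 without low glucose replicate 2, 3 without both libraries numbered 2 and with library size alone, and 4 with the replicate block. Of 14 FOXO targets and FOXO genes, 6 fell and none rose (42.9% changed, median -0.22), and none had a higher level at an unadjusted edgeR p under 0.05 or by DESeq2 or limma-voom. Fbxo32, a ubiquitin ligase gene, fell 1.70-fold, Ccng2, an atypical cyclin gene, 1.36-fold, and Foxo3 and Foxo1 themselves 1.34-fold and 1.31-fold. Sesn3 fell beside them, while Sesn1 did not pass (adjusted p = 0.0589 in edgeR). With the replicate block 9 of the 14 fell, and Sesn1 was called lower as well, where 18.5% of all genes were lower in that fit. Whether any inducer acted on the members was not tested.

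Of 19 p53 targets, 2 rose and 2 fell (21.1% changed, against 25.0% of all genes, median 0.17). Btg2, an antiproliferative gene, fell 2.36-fold from 368 ± 42.6 to 156 ± 24.4 CPM and Rrm2b, a ribonucleotide reductase subunit gene, 1.44-fold, while Aen rose 1.28-fold and Gadd45a 1.25-fold. Rrm2b and Gadd45a overlap Gm49085 and E230016M11Rik. Gadd45a had adjusted p = 0.041 and passed only without low glucose replicate 2 among the 8 fits that left out a library, and it missed the threshold with no filter (0.0564) and with the acinar covariate (0.0524). Of the p53 targets 1 rose when HG1, HG3, HG4, LG1 or LG3 was left out, 4 rose without both libraries numbered 2, 8 in the blocked fit and 0 with library size alone, where Aen had adjusted p = 0.0591. The shares of all genes that rose were 16.4% without both libraries numbered 2, 18.9% in the blocked fit and 10.4% with library size alone. Of 7 tested glucocorticoid receptor targets, 4 fell and 1 rose (71.4% changed, median -0.35). Dusp1, a MAP kinase phosphatase gene, fell 2.23-fold, Fkbp5, a chaperone gene, 1.28-fold, and the clock gene Per1 1.51-fold, while the kinase gene Sgk1 rose 1.29-fold. Per1 and Sgk1 were each called in 2 of 8 fits that left out a library, with adjusted p of up to 0.0881 and 0.0839. Of these targets 2 fell when LG1, LG3 or any 1 high glucose library was left out, and none rose when HG1, HG2, HG3, LG1, LG3 or LG4 was. Beside the p53 targets, the members Sesn1 and Sesn2 did not pass. Ddit4 rose 1.26-fold, against the direction of most glucocorticoid receptor and FOXO targets that passed. Which inducer, if any, acted on a member was not tested.

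The genes whose log2 CPM followed a called member most closely over the 8 libraries were sought among 13594 other protein-coding genes. For Eif4ebp1 they were Eif3b, a translation initiation subunit gene, Nptx2 and Exo1, with Pearson's r of 0.997, 0.996 and 0.996. They were higher in high glucose 1.29-fold, 8.24-fold and 5.17-fold, and Exo1 had only 0.665 CPM in low glucose. For Sesn3 they were Tmed8, Sort1 and Fmr1 (0.995, 0.995 and 0.994), of which Tmed8, which overlaps Samd15, fell 1.44-fold and Sort1 fell 1.39-fold, while Fmr1, with a high over low ratio of 0.921, had adjusted p = 0.15. For Ddit4 they were Arhgef39, Nab1 and Gfra4 (0.991, 0.983 and 0.982), at 2.34-fold, 1.30-fold and 2.54-fold higher. Arhgef39 and Gfra4 were under 2 CPM in both groups. These correlations are over 8 points that share the glucose group and the library, so they describe a ranking only.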

How the data were processed

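Bulk RNA of 8 mouse islet libraries was measured. The authors' deposited table lists whole-number read counts per gene, which were not normalized, for 27534 genes. Per the file headers it also gives the authors' FPKM and a signal per library, which the authors made by dividing the count by 1 size factor. The FPKM equal the count divided by the listed gene length and by 1 factor per library. That factor is not the total of the library's listed counts, and how it was set is not given in the sources used here. The authors' deposited comparison adds a log2 fold change and a p-value per gene. Per the submitters' processing notes, STAR 2.5, HTSeq 2 and DESeq2 were used with mm10 (GRCm38). Not given in the sources used here were the strand setting, the annotation release and how multimapping reads were handled.

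Counts were tested with edgeR 4.0.16 (R 4.3.3): TMM scaling, filterByExpr (minimum count 10, minimum total 15; 15442 genes kept), a quasi-likelihood fit of the group over all 8 libraries, and Benjamini-Hochberg adjustment over all genes tested with a threshold of 0.05. Each standard error was derived from the log2 fold change and the square root of F. CPM are counts over the TMM-adjusted library size, and log2 CPM used a prior count of 2. Alternatives were library size alone, DESeq2 1.42.0, limma-voom (limma 3.58.1), no filter, the replicate block, an acinar marker covariate, each library left out and, chosen after seeing the data, both libraries numbered 2 left out. Nothing says what a replicate number stands for. Deviations from the group means correlated between same-number libraries with r of 0.101, 0.449, 0.404 and 0.475 for numbers 1 to 4 over genes, all above 0.1, so the blocked result is given where it changed a call, although library 1 of low glucose correlated better with library 4 of high glucose (0.207). Total counts per library set the precision, and floors cover counting error only.

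The pipeline was tested on simulated counts for the high against low glucose comparison. With 15211 genes run, 46.3% of 1.5-fold changes, 73.4% of 2-fold changes and 95.2% of 4-fold changes were recovered, and 8 of 146 calls were false. Only 67, 64 and 63 genes were changed at these folds, far fewer than the 3854 genes called in the data. The adjusted p depends on how many genes change, so these shares do not carry over to the real comparison.

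The members and gene lists were chosen with earlier results of these data known. The text names all 10 members, from each pathway or inducer list up to 4 passing genes by smallest adjusted p, plus at most 2 passing against the direction of most of the list, the 2 most abundant genes of each cell type list, and the 3 genes most correlated with each of the 3 members with the smallest adjusted p. The 2 most abundant cell type markers, by CPM in high and low glucose, were Ins2 (160598 and 153598) and Ins1 (42598 and 33451) for β cells, Gcg (16926 and 19298) and Sst (2968 and 1885) for other endocrine cells, Ctrb1 (4296 and 2628) and Pnliprp1 (1486 and 1021) for acinar cells and Krt8 (385 and 286) and Krt7 (270.0 and 278) for ducts. They were Col1a1 (152 and 65.8) and Col3a1 (148 and 57.1) for fibroblasts, Eng (9.65 and 8.92) and Esm1 (6.70 and 8.20) for endothelium, and Lyz2 (135 and 138) and C1qa (95.9 and 113) for leukocytes, and none of these 14 passed.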

Additional observations from a re-analysis of the deposited data

Results flagged for a closer look

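In 14 of 146 groups of 4 libraries examined, 1 library lay so far from the other 3 that its gap to the nearest took a larger part of the range than Dixon's 95% critical value allows, which chance gives for about 1 in 20 groups. Low glucose replicate 2 was that library in 8 of the 14. Deptor was at 138 CPM there against 182 to 186 CPM in the other low glucose libraries, Tsc2 at 76.9 against 99.3 to 101 CPM, and Castor1 at 1.18 against 0.672 to 0.758 CPM, which rests on 22 counts. In the same library Sesn3 made up 32.8% of sestrin FPKM against 39.4% to 39.9%, Eif4e had 18.0 FPKM against 15.5 to 15.8, Eif4a2 886 CPM against 690.1 to 713, Ins2 201696 CPM against 131131 to 142356 and C1qa 152 CPM against 98.1 to 104. High glucose replicate 2 stood apart for Rheb (135 CPM against 111 in each of the others) and Foxo3 (51.8 against 59.4 to 59.9 CPM). The remaining libraries that stood apart were high glucose replicate 4 for Btg2 (193 against 143 to 145 CPM), low glucose replicate 4 for Ins1 (25254 against 35902 to 36416 CPM), high glucose replicate 1 for Col3a1 (370 against 45.5 to 92.3 CPM) and high glucose replicate 3 for Eng (12.3 against 8.69 to 8.89 CPM). The part of these libraries' makeup in the members' values was not tested.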

How the results depend on the processing

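Eif4ebp1 and Sesn3 kept their direction and call under all 15 alternatives, and Ddit4 under 14, the exception being library size alone. Sesn2, Deptor, Castor1 and Tsc2 were not called under any. With the replicate block, whose pairing rests on a weak correlation for number 1, the count of genes changed over all genes was 5779 and of genes lower 2862, 6 members changed with 3 lower, and 14 other pathway genes were higher. Among members the block changed only the calls of Sesn1, Eif4ebp2 and Rps6kb1. With library size alone 1 member was higher and 2 were lower, and 5 other pathway genes were higher. With both libraries numbered 2 left out, 5 members changed with 3 lower and 14 other pathway genes were higher, where 5033 of all genes changed (2563 higher and 2470 lower). Leaving out 1 library gave 3 or 4 members changed with 1 or 2 lower, 5 to 12 other pathway genes higher and 12 to 22 lower, while the count over all genes was 3015 (without low glucose replicate 1) to 5132 (without low glucose replicate 2), or 19.1% to 32.4% of genes tested. The causes were not tested. Depth limits Castor1, at 6 to 26 counts per library.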

Other observations

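Some further values concern the partners of the members, and these genes were chosen after their values were seen. Castor2, the paralog of Castor1, measured 374 ± 9.72 CPM (high glucose) and 363 ± 32.1 CPM (low glucose), with 0.04 as its log2 fold change (SE 0.08, adjusted p = 0.73), which per length is 49.0 and 46.8 FPKM against 0.522 and 0.521 FPKM for Castor1. Ddit4l, the paralog of Ddit4, had 2.90 ± 0.744 and 2.36 ± 0.898 CPM with adjusted p = 0.501. For Rps6kb2, the other S6 kinase gene, which overlaps Ptprcap, the levels were 15.9 ± 1.69 and 14.8 ± 2.56 CPM (adjusted p = 0.604). Eif4ebp3, the third 4E-BP gene, had at most 0.644 CPM in any library and did not pass the filter on low counts.

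The ratio of Tsc2 to Tsc1 FPKM was 2.23 ± 0.148 in high and 1.61 ± 0.107 in low glucose, with ranges of 2.05 to 2.39 and 1.52 to 1.72. That of Deptor to Mtor FPKM was 3.10 ± 0.185 and 2.51 ± 0.116, with ranges of 2.91 to 3.32 and 2.42 to 2.68. Neither pair of ranges overlapped, and these ratios were not tested. Mtor itself, at a log2 fold change of -0.19 (SE 0.13), had adjusted p = 0.325, against 0.0242 in the blocked fit and 0.0084 without both libraries numbered 2.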
